A study of Mus musculus with 20 samples.

Results

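Cathepsins are proteases of the lysosome, and the 10 cathepsin genes Ctsa, Ctsb, Ctsc, Ctsd, Ctsf, Ctsh, Ctsk, Ctsl, Ctss and Ctsz were followed by symbol among the 39017 gene identifiers of the count table. All 10 were found. Adult male C57BL/6 mice (the substrain C57BL/6J in the methods of the study), 3 to 4 months old, gave sorted microglia and sorted astrocytes of the injured side of the forebrain, with 5 sham and 5 injured RNA libraries for each cell type, 20 in all. Injured mice had lateral fluid percussion injury (FPI), a pulse of fluid onto the dura through a craniectomy, and tissue was taken 7 days later. Sham mice had the same craniectomy, anaesthesia and connection to the device without the pulse, so that surgery is shared by both conditions. Microglia were sorted as CD11b+ cells with intermediate CD45 and astrocytes by the surface antigen ACSA-2. The mice carried no transgene, and 1 library came from the cells of 1 animal.

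Cathepsins are made as inactive precursors, tagged with mannose 6-phosphate, carried to the lysosome by receptors for that sugar and activated there. Most are papain-like cysteine proteases, whereas cathepsin D is an aspartic protease and cathepsin A a serine carboxypeptidase. Microglia, the phagocytes of the brain, use them to degrade engulfed material and to process antigen, and cystatins hold the cysteine cathepsins in check.

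Each library held 5623349 to 13110857 counts (median 8138608), and levels below are CPM (scaled by library totals and by TMM factors over all 20). The 20 marker genes of microglia summed to 22344 to 34446 CPM in the microglia libraries, and the 10 of astrocytes to 10293 to 31791 CPM in the astrocyte libraries, with every one of these markers read in every library of its own cell type. Neutrophil markers were near the floor in astrocyte libraries, with 5 of 5 at 0 in FPI astrocytes. Oligodendrocyte markers summed to 1338 to 16081 CPM and those of mural cells and fibroblasts to 295 to 4301 CPM in astrocyte libraries. Border macrophage markers summed to 15.9 to 386 CPM in sham microglia and 24.6 to 230 CPM in FPI microglia. Monocyte markers, of which 4 of 5 had a row, summed to 18.9 to 46.0 CPM in sham microglia and 31.6 to 181 CPM in FPI microglia. FPI astrocyte library 5 is named with the suffix of microglia and with the number of the animal of library 2. It was kept under its title, and its marker sums were 197 CPM for microglia and 15642 CPM for astrocytes. Because these are bulk samples, a lower level from fewer cells of a type and one from less RNA per cell cannot be told apart.

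The first question was which cathepsins each cell type carried without injury. Sham microglia held far more cathepsin RNA than sham astrocytes. The 10 genes summed to 13929 ± 1079 CPM (SD, n = 5) in sham microglia and 1029 ± 237 CPM in sham astrocytes, which is 1.43% and 0.101% of all counts. In the edgeR fit of all 20 libraries 9 of the 10 differed between the sham groups (adjusted p below 0.1 and log2 fold change beyond 0.6 in size), against 60.9% of the 15077 genes tested. Of these, 8 were higher in microglia, a direction called for 25.3% of genes. The median log2 difference was 2.99 over the cathepsins and -0.15 over all genes tested.

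**Figure D1:**
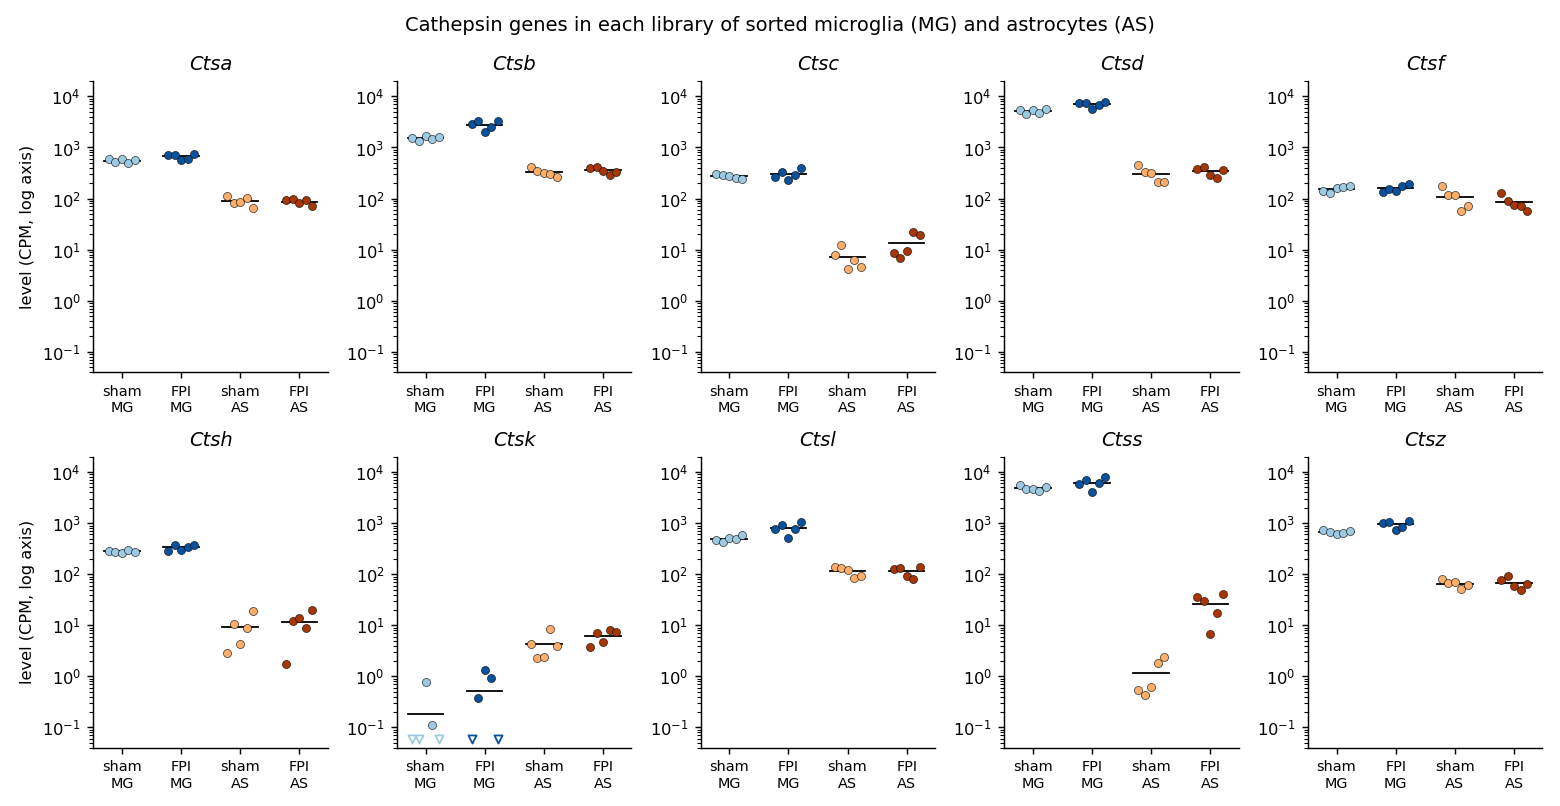
Level of each cathepsin gene in every library, in CPM on a log axis, for sham and FPI microglia (MG) and sham and FPI astrocytes (AS). Points are libraries, bars are group means, and open triangles are libraries at 0, which occur for Ctsk in microglia alone. Ctss ranged from 4208 to 5558 CPM in sham microglia and from 0.435 to 2.40 CPM in sham astrocytes, the widest gap of the 10.

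Ctss, the cysteine protease that trims the invariant chain of MHC class II in antigen-presenting cells, separated the cell types most. Its level in sham microglia libraries 1 to 5 was 5558, 4595, 4647, 4208 and 5144 CPM. In sham astrocytes it was 0.531, 0.435, 0.627, 1.85 and 2.40 CPM, from 52 reads in all. The groups were far apart, with a log2 difference of 12.02 (SE 0.59, adjusted p = 5.44e-13). Ctsc, or dipeptidyl peptidase I, which activates serine proteases of granules, and Ctsh, an aminopeptidase, followed with log2 differences of 5.26 (SE 0.35) and 4.93 (SE 0.48). Ctsc averaged 271 ± 25.0 CPM in sham microglia and 7.00 ± 3.26 CPM in sham astrocytes. Ctsh averaged 280 ± 13.5 and 9.18 ± 6.33 CPM.

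Among the broadly used lysosomal enzymes the distance was smaller, and all were well read in astrocytes. Ctsd, the main aspartic protease of the lysosome, had 5385, 4598, 5365, 4771 and 5572 CPM in the sham microglia libraries and 445, 329, 320, 207 and 215 CPM in the sham astrocyte libraries. No library of one cell type reached the range of the other, and the log2 difference was 4.08 (SE 0.23). Ctsz, a carboxypeptidase, differed by 3.36 (SE 0.19), and Ctsa, which also shields the sialidase Neu1 and the galactosidase Glb1 from degradation, by 2.62 (SE 0.16). The endopeptidases Ctsb and Ctsl differed least among the 8 genes higher in microglia, by 2.22 (SE 0.17) and 2.13 (SE 0.21). Adjusted p for these 5 genes was at most 1.26e-08.

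Ctsf and Ctsk did not share this order. Ctsf, a cysteine protease whose loss causes an adult form of neuronal ceroid lipofuscinosis, was read at 142, 131, 159, 169 and 177 CPM in sham microglia and at 174, 117, 117, 58.0 and 71.5 CPM in sham astrocytes. The ranges overlapped, and the log2 difference of 0.53 (SE 0.24, adjusted p = 0.0618) lay under the fold minimum. Ctsf was called higher in microglia without sham microglia library 2 (0.62, adjusted p = 0.0482) and without sham astrocyte library 1 (0.75, adjusted p = 0.0101) or 3 (0.61, adjusted p = 0.0568). In astrocytes Ctsf was highest in library 1 of each condition, at 174 and 126 CPM, where the astrocyte markers summed to 31715 and 31791 CPM. It was lowest in sham library 4 and FPI library 5, at 58.0 and 57.2 CPM, where those markers summed to 10293 and 15642 CPM. FPI library 4, with the lowest marker sum of its group (11909 CPM), had 69.9 CPM. How far the spread of Ctsf goes with these markers was not tested.

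Ctsk, a collagen-degrading protease best known from osteoclasts, was the 1 cathepsin lower in microglia, with a log2 difference of -4.45 (SE 0.99, adjusted p = 5.36e-04). It was read at 4.38, 2.26, 2.40, 8.62 and 3.92 CPM in sham astrocytes and at 0, 0, 0.784, 0.114 and 0 CPM in sham microglia, where it had 8 reads in all. Every astrocyte library lay above every microglia library. The astrocyte libraries also held the markers of mural cells and fibroblasts at 657 to 3042 CPM in sham mice, against 21.0 to 71.7 CPM in sham microglia, and the part of those cells in the level of Ctsk was not tested. Sham astrocyte library 4, the highest for Ctsk, had 1565 CPM of these markers, the median of its group. Oligodendrocyte markers summed to 6694, 2859, 1338, 16081 and 7262 CPM in sham astrocyte libraries 1 to 5, highest in library 4 too. In FPI astrocytes they were highest in library 4 (10117 CPM, Ctsk at 7.98 CPM) and lowest in library 5 (2823 CPM, Ctsk at 7.35 CPM). The part of oligodendrocytes in Ctsk was not tested either.

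To set genes beside each other, levels were divided by the length of all exons of the gene (CPM per kb). In sham microglia Ctss made up 52.3% of the family's level per kb and Ctsd 32.2%, followed by Ctsz at 6.93% and Ctsb at 3.72%, and the libraries of these neighbours in the order did not overlap. In sham astrocytes Ctsd led with 43.2%, ahead of Ctsb at 18.7%, Ctsz at 15.8%, Ctsf at 7.02%, Ctsa at 6.62% and Ctsl at 6.02%. Ctsd stood apart from Ctsb in every library, Ctsb and Ctsz overlapped, and so did Ctsf, Ctsa and Ctsl. Ctss was last, with 0.344%. With the length of the principal transcript in place of all exons, an alternative chosen after the data had been seen, Ctsf was the third in sham astrocytes with 14.3% and Ctsz the fourth with 12.7%, while the leading 4 genes of sham microglia kept their order. Ctsd stayed at the head of the astrocyte order after FPI, with 43.5%, and Ctss moved in it from place 10 to place 4, with 5.60% (place 6 with the principal transcript).

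**Figure D2:**
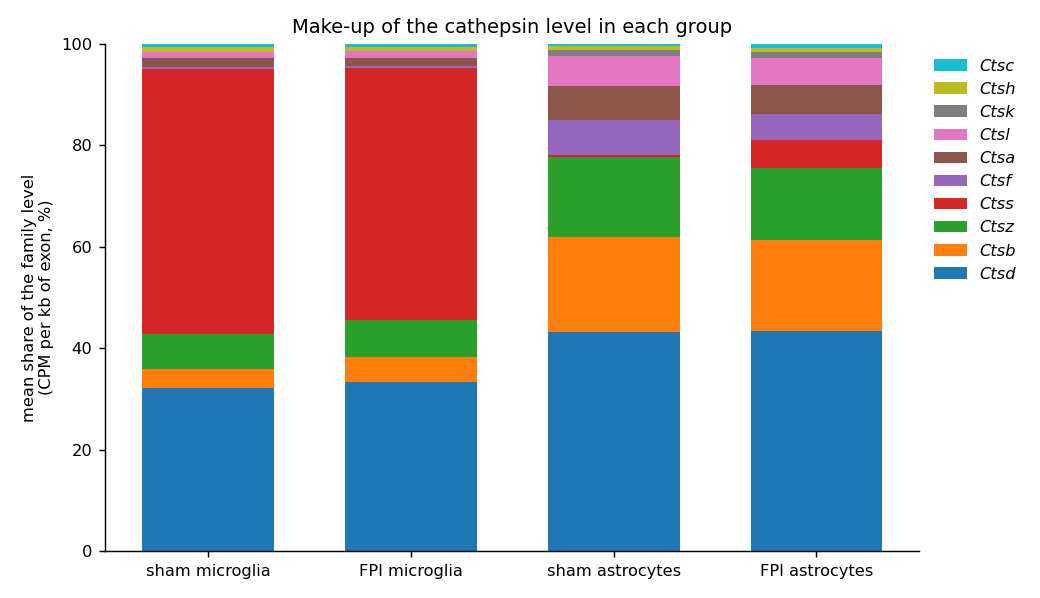
Mean share of each cathepsin gene in the family's summed level, in CPM per kb of exon, for the 4 groups of 5 libraries. Ctss takes 52.3% of the bar in sham microglia and 49.8% in FPI microglia, against 0.344% and 5.60% in sham and FPI astrocytes, where Ctsd is the largest part.

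Promoter sequences, 250 bases before to 50 after the start of the gene from RefSeq on GRCm38.p6, were at hand for 8 of the 10 genes, and 3 are shown because they belong to the gene that separated the cell types most (Ctss), to the leading astrocyte gene (Ctsd) and to a gene called after FPI in microglia (Ctsl). They run 5′ to 3′ on the strand of the gene, which is plus for Ctss (chr3:95526536-95526835) and minus for Ctsd (chr7:142387778-142388077) and Ctsl (chr13:64370471-64370770). GENCODE M21 has the 5′ end of Ctsl at 64370890, so that the whole Ctsl window lies inside the gene as annotated there. The 5′ end of Ctsd in GENCODE M21, 142388038, falls within the Ctsd window. Capitals mark the motifs searched on both strands, CACGTG (core of the element bound by TFEB), GAGGAA (core bound by PU.1, which reads TTCCTC on the other strand) and GAAA, any 2 bases and GAAA (core of the interferon-stimulated response element).
Ctss: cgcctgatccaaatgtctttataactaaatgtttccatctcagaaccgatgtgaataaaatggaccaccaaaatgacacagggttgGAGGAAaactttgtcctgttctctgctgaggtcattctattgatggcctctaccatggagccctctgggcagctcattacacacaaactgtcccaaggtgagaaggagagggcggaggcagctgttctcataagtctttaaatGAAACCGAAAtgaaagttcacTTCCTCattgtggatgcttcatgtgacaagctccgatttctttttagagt
Ctsd: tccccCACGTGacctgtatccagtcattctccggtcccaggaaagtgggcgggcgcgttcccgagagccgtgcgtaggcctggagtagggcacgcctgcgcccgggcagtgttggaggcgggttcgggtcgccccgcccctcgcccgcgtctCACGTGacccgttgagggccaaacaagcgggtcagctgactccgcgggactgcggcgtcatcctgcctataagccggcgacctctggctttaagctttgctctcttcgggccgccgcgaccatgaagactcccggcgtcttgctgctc
Ctsl: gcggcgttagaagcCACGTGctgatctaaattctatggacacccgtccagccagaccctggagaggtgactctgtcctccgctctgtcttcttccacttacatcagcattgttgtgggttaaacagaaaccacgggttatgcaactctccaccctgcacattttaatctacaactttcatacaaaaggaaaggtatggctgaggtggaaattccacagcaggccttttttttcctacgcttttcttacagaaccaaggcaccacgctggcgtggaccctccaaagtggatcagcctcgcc

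The Ctss window held 2 copies of GAGGAA and 1 of the interferon-stimulated core, and no CACGTG. Ctsd held 2 copies of CACGTG and Ctsl 1. Of the other genes, Ctsf and 1 of the 2 Ctsa promoters held CACGTG, Ctsc and Ctsk held GAGGAA, and Ctsz held none of the 3 motifs. Among all 32851 promoters of this length, 7.15% held CACGTG, 28.3% GAGGAA and 3.44% the interferon-stimulated core. These matches describe letters only.

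The next question was how FPI changed the family in microglia. The summed level was 13929 ± 1079 CPM in sham and 19315 ± 3272 CPM in FPI microglia, a difference of 5386 CPM to which Ctsd gave 35.7%, Ctss 26.1% and Ctsb 23.5%. Ctsb and Ctsl were called, both higher, out of 9 cathepsins tested (Ctsk was too low, with 8 and 20 reads in the groups). Across all 12143 genes tested 2.35% were called and 2.13% were called higher. All 9 tested cathepsins had a log2 fold change above 0, with a median of 0.39, against -0.0094 over all genes. An unadjusted p below 0.05 was reached by 7 of them, all higher, and by 1377 of all 12143 genes, 907 of them higher.

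**Figure D3:**
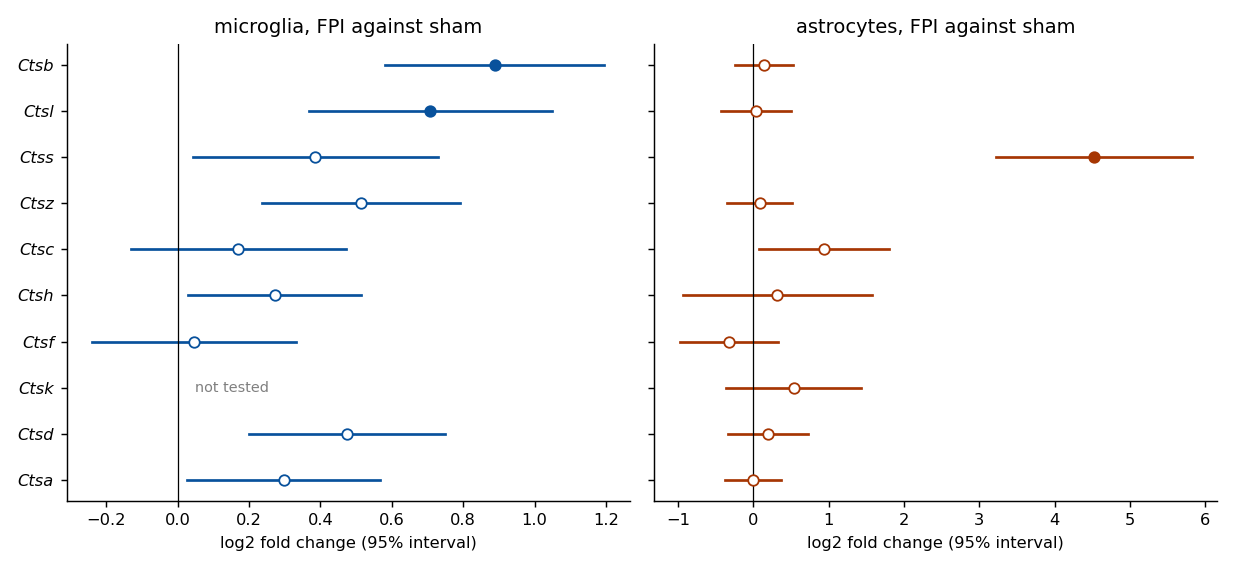
Log2 fold change of each cathepsin gene after FPI in microglia (left) and astrocytes (right), with 95% intervals from the edgeR fit of 5 against 5 libraries. Filled points are called, and the axes differ between panels. In microglia all 9 tested genes lie right of 0, with Ctsb (0.89) and Ctsl (0.71) called, and in astrocytes Ctss (4.52) alone is called.

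Ctsb, a cysteine protease with endo- and exopeptidase activity, had the smallest adjusted p of the family. It was read at 1552, 1312, 1647, 1486 and 1635 CPM in sham microglia and at 2913, 3248, 2008, 2543 and 3259 CPM in FPI microglia. The FPI libraries were all higher than the sham libraries, which in this comparison held for 2.11% of all genes and, among the cathepsins, for Ctsb alone on the scaling of the microglia libraries by themselves. The log2 fold change was 0.89 (SE 0.15, 95% interval 0.58 to 1.20, adjusted p = 0.00162). It was called with each library left out in turn.

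Ctsl, a cysteine endopeptidase of the lysosome, rose from 499 ± 56.3 to 805 ± 195 CPM. Its sham libraries had 474, 434, 504, 498 and 587 CPM and its FPI libraries 778, 910, 516, 781 and 1040 CPM. All FPI libraries but library 3 lay above the sham range. The log2 fold change was 0.71 (SE 0.16, adjusted p = 0.0247). The call was lost without sham library 2 (adjusted p = 0.101), without FPI library 5 (log2 fold change 0.58) and in the fit of all 20 libraries (adjusted p = 0.154).

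Ctsz and Ctsd passed the adjusted p but not the fold minimum. Ctsz went from 677 ± 43.0 to 954 ± 158 CPM, or 0.51 in log2 fold change (adjusted p = 0.0531, SE 0.13). Ctsd had 0.47 (adjusted p = 0.0731, SE 0.13), with FPI libraries at 7538, 7495, 5713, 6843 and 7720 CPM beside the sham values given above. On the scale of all 20 libraries every FPI library lay above the sham libraries for both genes, and on that of the microglia libraries alone they overlapped. Without FPI library 3 Ctsz was called (log2 fold change 0.60).

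The remaining members were not called. Ctss was read at 5771, 7113, 4094, 6167 and 8030 CPM in FPI microglia, with 4 libraries above the sham range and library 3 below it, and a log2 fold change of 0.39 (adjusted p = 0.345, SE 0.16). Without FPI library 3 this was 0.51 with an adjusted p of 0.0343, still under the fold minimum. Ctsa, Ctsh and Ctsc had 0.30, 0.27 and 0.17 (adjusted p = 0.365, 0.348 and 0.769). Ctsf had 0.05, with a 95% interval of -0.24 to 0.33, so that a change past the fold minimum lay outside the interval.

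FPI library 3 was lowest for 7 of the 10 genes (Ctsa, Ctsb, Ctsc, Ctsd, Ctsl, Ctss and Ctsz) and library 5 highest for 9, all but Ctsk. These libraries also had the lowest and highest sums of the 20 microglial markers, 22344 and 34446 CPM. Between FPI and sham microglia 10 of these 20 markers had a log2 fold change above 0, with a median of 0.01. They went both ways, with 6 lower and 2 higher at an unadjusted p below 0.05. P2ry13, a purinergic receptor of microglia named here after its values were seen, was called lower (-0.65, adjusted p = 0.0493). The microglia libraries bear 2 series of names, animal numbers alone and numbers ending in J, and what the series stands for is not given in the sources used here. The names of the 4 J libraries end in the letter A that the astrocyte libraries bear, and these libraries held 27456 to 34446 CPM of microglial and 244 to 365 CPM of astrocyte markers. The log2 ratio of means was 0.86 and 0.89 for Ctsb, 0.64 and 0.75 for Ctsl, 0.43 and 0.49 for Ctsd, and 0.48 and 0.52 for Ctsz in the 2 series. For Ctss it was 0.20 and 0.60, and for Ctsc -0.07 and 0.47. Border macrophage markers differed by series too, at 123 to 386 CPM in the libraries named by number alone and 15.9 to 52.4 CPM in the J libraries. Of the monocyte markers 2 were tested by edgeR between FPI and sham microglia, both named here after their values were seen. Fn1 was called higher (log2 fold change 1.84, adjusted p = 0.00959) and Ccr2 was not called (0.29, adjusted p = 0.930). By edgeR Fn1 was also lower in sham microglia than in sham astrocytes (log2 difference -1.76, adjusted p = 0.00741). Monocyte markers were highest in FPI microglia libraries 1 and 2 (144 and 181 CPM), which also had the most astrocyte markers (574 and 609 CPM). The part of astrocyte RNA in Fn1 was not tested. The part of border macrophages and monocytes in the cathepsin levels was not tested.

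In astrocytes FPI left the family's sum at 1106 ± 171 CPM beside 1029 ± 237 CPM in sham. Ctss was called among 10 cathepsins tested. It was the only call among 13741 genes, 0.00728% of them in either direction and 0.00728% higher (an unadjusted p below 0.05 was reached by 319 genes, and DESeq2 called 39). Ctss was read at 36.5, 29.5, 6.60, 17.7 and 40.4 CPM in the FPI libraries, 1047 reads against 52 in sham. The lowest FPI library was above the highest sham library, which held for 0.488% of all genes and for no other cathepsin. The log2 fold change was 4.52 (SE 0.60, adjusted p = 0.0798). Leaving out 1 library in turn gave 4.28 to 4.94 with adjusted p from 0.0154 to 0.386, and the call was kept without sham library 5, FPI library 1 or FPI library 3 and lost without any of the other 7. FPI libraries 2 and 5 bear the number of the same animal, and with their counts summed the log2 fold change was 4.36 and the call was lost (adjusted p = 0.270).

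No other cathepsin was called in astrocytes by edgeR, each with an adjusted p of 0.999, and none by DESeq2. Ctsc had the next largest log2 fold change, 0.94 (SE 0.40, unadjusted p = 0.0355), with 7.83, 12.2, 4.07, 6.36 and 4.55 CPM in sham and 8.66, 6.76, 9.22, 21.8 and 19.5 CPM in FPI libraries. Only FPI libraries 4 and 5 lay above the sham range. Among FPI libraries these 2 had the most oligodendrocyte precursor markers, 584 and 1253 CPM, and the most mural and fibroblast markers, 2151 and 4301 CPM. Sham library 5 held 608 and 3042 CPM of the same markers, with Ctsc at 4.55 CPM. The part of these cells in Ctsc was not tested.

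Ctsk had a log2 fold change of 0.54 and Ctsh 0.32, with wide intervals of -0.36 to 1.43 and -0.93 to 1.57. Ctsh was read at 2.92, 10.7, 4.39, 8.93 and 19.0 CPM in sham astrocytes and at 1.75, 12.1, 13.7, 8.92 and 20.3 CPM in FPI astrocytes, so that the groups overlapped over nearly their whole range. Its lowest level in each condition was in library 1, where the sums of mural and fibroblast markers were also lowest (657 and 295 CPM), and its highest in library 5, where they were highest (3042 and 4301 CPM). Their part in Ctsh was not tested. For the abundant members the intervals were narrower. Ctsb had 0.15 (-0.24 to 0.53), Ctsd 0.20 (-0.33 to 0.72), Ctsz 0.09 (-0.34 to 0.52), Ctsl 0.03 (-0.43 to 0.50) and Ctsa -0.01 (-0.38 to 0.36). Ctsf had -0.32 (-0.98 to 0.33). A rise of Ctsb as large as the 0.89 of microglia lay outside its astrocyte interval.

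The effect of FPI itself was compared between cell types in the fit of all 20 libraries, where 0.199% of 15077 genes were called and 0.166% were called higher in astrocytes than in microglia. Ctss was called, with an effect larger in astrocytes by 4.12 on the log2 scale (SE 0.59, adjusted p = 0.00329). This contrast is one of ratios, since Ctss gained 25.0 CPM in astrocytes and 1405 CPM in microglia. All 20 microglial markers also had a contrast above 0, with a median of 2.89, and 6 of them were called. Ctsb had -0.75 (SE 0.23, unadjusted p = 0.00364, adjusted p = 0.364) and Ctsl -0.69 (SE 0.28, unadjusted p = 0.0233, adjusted p = 0.606), so that no difference between the cell types was called for the cathepsins that rose in microglia. None of the other 7 was called, with adjusted p from 0.778 to 1.00.

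The astrocyte values were then set against the level of each gene in microglia, since RNA carried over from microglia would add to each gene in proportion to that level. The 20 microglial markers summed to 32.3, 15.3, 11.7, 16.5 and 22.6 CPM in sham and to 107, 131, 38.4, 51.6 and 197 CPM in FPI astrocyte libraries. No sham library reached the FPI range. The difference of 85.4 CPM had p = 0.00794 in an exact two-sided permutation test, the smallest p that 5 against 5 libraries allow. That test took FPI libraries 2 and 5, of the same animal number, as separate. Without library 2 the difference was 78.8 CPM and without library 5 it was 62.5 CPM, each with an exact permutation p of 0.0159, the smallest that 5 against 4 libraries allow. None of the 20 was at 0 in either group, 7 were read in every sham library and 14 in every FPI library.

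Ctss lay within the range of these markers on every measure taken. Its mean level in astrocytes was 0.0242% of that in microglia in sham mice, where the markers ran from 0.0137% (Selplg) to 0.425% (Olfml3) with a median of 0.0418%. In FPI mice it was 0.419%, and the markers ran from 0.0773% (Siglech) to 0.898% (Fcer1g) with a median of 0.374%. The difference of 25.0 CPM was 0.401% of the FPI microglial level, and the difference for the markers was 0.0198% (Siglech) to 0.758% (Fcer1g), with a median of 0.316%. As a ratio of FPI to sham, Ctss reached 22.4 and the markers 1.34 (Siglech) to 25.7 (C1qa), median 7.10. On this ratio Ctss was near the upper end, with C1qa alone above it. The next marker, Trem2 (named here after its values were seen), was at 13.6. How much of the Ctss in astrocyte libraries came from microglia was not tested.

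**Figure D4:**
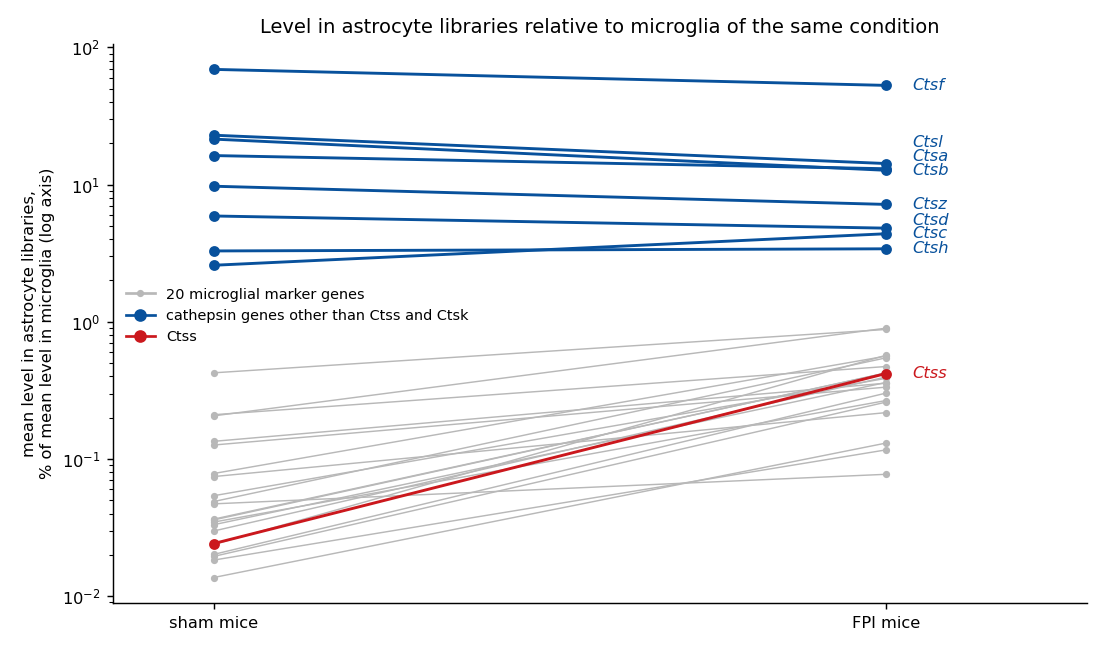
Mean level in astrocyte libraries as a percentage of the mean in microglia of the same condition, on a log axis, for 9 cathepsin genes (Ctsk, higher in astrocytes, is left out) and 20 microglial markers in grey. Ctss moves from 0.0242% to 0.419%, inside the grey band in both conditions, and the other 8 cathepsins lie at 2.58% or above.

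The shares were also set side by side in each library. In FPI astrocyte libraries 1 to 5 the summed markers stood at 0.382%, 0.468%, 0.136%, 0.184% and 0.700% of their mean in FPI microglia. At those shares Ctss would be read at 23.8, 29.2, 8.51, 11.5 and 43.6 CPM, and the ratios of the levels read to these were 1.53, 1.01, 0.776, 1.55 and 0.927. Library 3 was lowest and library 5 highest for both. In sham libraries the ratio was 0.104 to 0.703, so that Ctss was read below the share of the markers in all 5.

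**Figure D5:**
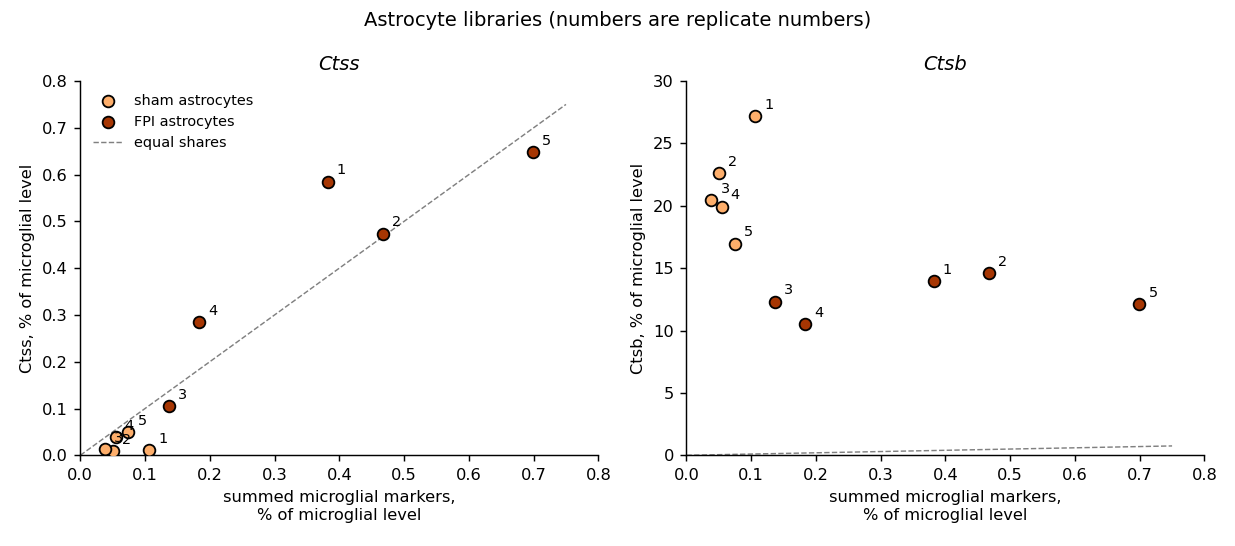
Ctss (left) and Ctsb (right) in each astrocyte library as a percentage of the microglial mean of the same condition, against the summed microglial markers on the same scale. The dashed line marks equal shares, and the right axis runs higher. The Ctss points of FPI libraries lie at 0.776 to 1.55 times the line, and the Ctsb points at 10.5% to 27.2%, all above it.

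By their group means the other cathepsins sat above the share of every marker. In sham mice the astrocyte level was 69.1% of the microglial level for Ctsf, 22.9% for Ctsl, 21.4% for Ctsb, 16.3% for Ctsa, 9.72% for Ctsz and 5.90% for Ctsd. Ctsh and Ctsc, at 3.28% and 2.58%, were lowest of these and still above the highest marker. At the marker share of the FPI libraries Ctsd would average 26.4 CPM where 340 CPM were read, Ctsb 10.4 CPM where 355 CPM were read, and Ctsc 1.13 CPM where 13.2 CPM were read. Ctsh came close to the marker share in FPI library 1, where 1.75 CPM were read and the share would give 1.28 CPM, a ratio of 1.37 that lies within the range of Ctss. In the other 4 FPI libraries its ratio was 7.78 to 30.1. The mean difference of 6.19 CPM for Ctsc was 2.05% of its FPI microglial level, beyond the highest marker. For Ctsb it was 0.995%, also beyond the highest marker (Fcer1g, 0.758%). For Ctsh it was 0.653%, for Ctsd 0.518%, for Ctsz 0.270% and for Ctsl 0.0300%, within the range of the markers.

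The 5 tested genes whose profile over the 10 astrocyte libraries was nearest that of Ctss, by the root mean square distance of centred log2 CPM, were Mpeg1 (0.63), Lyz2 (0.84), C1qa (0.89), Serpina3n (0.93) and Itgam (0.98). Mpeg1, Lyz2, C1qa and Itgam were read at 149 to 1625 CPM in sham microglia and at 0.375 to 0.620 CPM in sham astrocytes. Serpina3n, a serine protease inhibitor of reactive astrocytes, had the opposite placing, with 22.4 CPM in sham and 113 CPM in FPI astrocytes and 0.143 and 2.68 CPM in microglia.

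Among 43 further genes of the pathway, the inhibitors came first. Of 13 cystatins and stefins 3 were tested in microglia, and Cst7, an inhibitor found in lysosomes of phagocytes, rose by 2.37 in log2 fold change (adjusted p = 0.00178, SE 0.40), with means of 8.52 ± 6.05 in sham and 42.3 ± 16.9 CPM in FPI and all FPI libraries above sham. Cst3, the secreted cystatin C, had 5196 ± 507 and 4908 ± 1245 CPM in sham and FPI microglia (log2 fold change -0.06) and 1799 ± 693 and 1381 ± 250 CPM in astrocytes (-0.35), not called in either. It was 1.53 higher in sham microglia than in sham astrocytes on the log2 scale (SE 0.26), and 2 of the 3 tested inhibitors, Cst3 and Cst7, were called higher there, a direction called for 25.3% of all genes.

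Of the 7 sorting and processing genes 1 was called after FPI in microglia, where 2.35% of all genes were called. Igf2r, the cation-independent mannose 6-phosphate receptor, averaged 2.64 ± 1.10 in sham and 9.51 ± 5.21 CPM in FPI, with a log2 fold change of 1.86 (adjusted p = 0.0432, SE 0.47) and overlapping libraries. The highest levels, 17.2 and 10.5 CPM, were in FPI libraries 1 and 2, which also had the most astrocyte markers, 574 and 609 CPM against 244 to 365 CPM in sham microglia. FPI libraries 3, 4 and 5 had Igf2r at 8.43, 2.62 and 8.84 CPM, with astrocyte markers at 366, 301 and 290 CPM. Sham microglia libraries had Igf2r at 1.33 to 4.09 CPM. All 10 astrocyte markers had a log2 fold change above 0 in this comparison, and their part in Igf2r was not tested. It was far more abundant in astrocytes, at 96.1 ± 22.7 CPM in sham (log2 difference of sham microglia from sham astrocytes -5.17, SE 0.39), where Gnptab and Gnptg, subunits of the phosphotransferase that builds the mannose 6-phosphate tag, were also higher. M6pr, Nagpa and Lgmn were higher in sham microglia. Lgmn, the asparaginyl endopeptidase that processes cathepsins, had 2970 ± 151 CPM in sham and 2989 ± 586 CPM in FPI microglia (log2 fold change 0.03), and 121 CPM in astrocytes of sham mice.

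Of the 6 partners and substrates all were called higher in sham microglia than in sham astrocytes, against 25.3% of all genes. The log2 difference was 6.64 for Cd74 (the invariant chain), 4.23 for Grn, 3.07 for Gusb (a lysosomal glucuronidase), 1.64 for Glb1, 1.05 for Psap (the precursor of the saposins) and 0.75 for Neu1. After FPI 1 of the 6 was called in microglia, against 2.35% of all genes. Grn, whose product progranulin is cut by cathepsins, was read at 1378 ± 170 in sham and 2340 ± 514 CPM in FPI and rose by 0.78 in log2 fold change (adjusted p = 0.00932, SE 0.16). Of the 4 transcription factors of lysosomal genes 3 were tested in each cell type, and none was called after FPI by edgeR. Tfec was not tested, with 20 and 15 reads in sham and FPI microglia. Mitf (0.39) and Tfe3 (-0.34) had an unadjusted p below 0.05 in microglia, and Tfe3 and Mitf were higher in sham microglia. Of 13 other cathepsin genes 2 were tested in microglia, Ctse and Ctso, with no call after FPI by edgeR, although Ctse had a log2 fold change of 1.64 (unadjusted p = 0.0423). Ctse was higher in sham microglia than in sham astrocytes (log2 difference 5.75, SE 1.16) from 34 reads. No gene of these 5 lists was called after FPI in astrocytes, where 18 of the 43 were tested and none had an unadjusted p below 0.05.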

How the data were processed

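Sorted microglia and astrocytes of sham and FPI mice were compared, with groups taken from the sample titles. The authors aligned reads of a stranded total RNA kit to mm10 (GRCm38.p6) with HISAT2 2.1.0 and deposited counts of reads per gene without normalization. The submitters' processing notes list featureCounts, and the strand setting of the counting is not given in the sources used here. Exons of Ctsa, Ctsb and Ctsz overlap the exons of Pltp and Neurl2, Fdft1 and Nelfcd on the opposite strand, so their counts are uncertain to that extent. Ctsk and Ctss are neighbours, 17423 bases apart. Of 39017 identifiers 37607 were in GENCODE M21 (GRCm38), which gave the exon lengths.

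Separate fits of the 10 libraries of each cell type used edgeR 4.0.16 (R 4.3.3; filterByExpr, TMM, quasi-likelihood test, Benjamini-Hochberg adjustment over all tested genes), and a joint fit of all 20 compared the sham groups and the effects of FPI. Calls needed an adjusted p below 0.1 and an absolute log2 fold change above 0.6, and the difference in effect at the adjusted p alone. Libraries of both cell types came from 3 of the animals, and fits over both cell types took libraries as independent. P-values set each difference against the spread between these libraries. The astrocyte and joint fits also took FPI astrocyte libraries 2 and 5, of the same animal number, as independent.

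The members and all lists were chosen with earlier results of these data known. All 10 cathepsins are named throughout. Genes of the other lists are named where called, with Cst3 and Lgmn always, markers as the lowest, middle and highest of their list, and the 5 genes nearest Ctss by distance. Alternatives were DESeq2 1.42.0, RLE factors, filters of at least 1 count and of at least 10 counts in every library, robust estimation, a replicate block, other thresholds, a term for the name series, all 20 or sham libraries alone, summing FPI astrocyte libraries 2 and 5, leaving out libraries of the 3 animals, and leaving out each library. Tables and figures were made with matplotlib 3.10.9, scipy 1.17.1, pandas 2.3.3 and numpy 2.4.6 in Python 3.11.15.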

Additional observations from a re-analysis of the deposited data

Results flagged for a closer look

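Ctsk in sham microglia replicate 3 stood far from the other 4 libraries of its group, at 0.784 CPM against 0 to 0.114 CPM. The group held 8 Ctsk reads in all. Of 46 groups of 5 libraries examined this was the 1 set apart. Chance alone would set apart about 5% of groups if values were normal and groups independent. Reads this few, and sums over the same genes, need not follow that rate.

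The effect of FPI on Ctss differed between the cell types, by 4.12 on the log2 scale in astrocytes against microglia (edgeR interaction contrast, adjusted p = 0.00329), with all 5 FPI astrocyte libraries above the sham range. The microglial markers read in the same astrocyte libraries moved with it, as given above, and their part was not tested.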

How the results depend on the processing

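The settings below changed counts of calls, and the cause was not tested unless the setting itself gives it. Between FPI and sham microglia 285 genes were called, 121 in the fit of all 20 libraries, and 177 to 423 with 1 library left out (177 without sham or FPI library 2). Cathepsins called were 2, with 4 under no minimum fold change, 1 in the fit of all 20 libraries and 1 to 3 with 1 library left out. In astrocytes 1 gene was called, and 39 by DESeq2, 9 with every gene of at least 1 count, 53 in the fit of all 20 libraries and 0 to 3 with 1 library left out. Genes and cathepsins called in astrocytes both fell to 0 with at least 10 counts in every library (which drops Ctss), with robust estimation (Ctss adjusted p = 0.135), at an adjusted p below 0.05 and with FPI libraries 2 and 5 summed (Ctss adjusted p = 0.270), and the cathepsins ranged from 0 to 1 with 1 library left out. Between the sham groups 9175 genes were called, and 4551 with at least 10 counts in every library. The effect of FPI differed between cell types for 30 genes, for 190 by DESeq2 (115 of them higher), for 1 gene and 0 cathepsins with at least 10 counts in every library, for 69 and 8 without the astrocyte or the microglia libraries of animals with both cell types, and for 21 to 48 with 1 library left out.

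Replicate numbers were not taken to pair the samples, since neither label nor animal ties them and not every correlation of same-numbered deviations passed 0.1. They ran from -0.075 to 0.084 in microglia, and in astrocytes 4 of 5 were 0.27 to 0.49 and that of number 2 was -0.0067, and the own number matched best for 2 of 5 and 3 of 5. A replicate block gave 11 calls in astrocytes and 114 differences in effect. It turned Ctsa in astrocytes to 0.0076, and ended the call of no cathepsin after FPI or in the difference in effect. Between the sham groups the block as coded compares the cell types at replicate number 1 alone. Its -0.27 for Ctsf is therefore not the mean difference of the sham groups, and its calls there do not bear on that difference. Other turns of sign were near 0. Ctsl in astrocytes was -0.0078 with every gene of at least 1 count and -0.068 with FPI libraries 2 and 5 summed. With 1 library left out Ctsf in microglia ran from -0.056 to 0.10, in astrocytes Ctsa from -0.10 to 0.063, Ctsl from -0.078 to 0.14, Ctsz from -0.054 to 0.19 and Ctsh from -0.010 to 0.77, and the difference in effect of Ctsh from -0.27 to 0.49. Depth limits Ctsk in microglia and Ctss in sham astrocytes, with 8 and 52 reads.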
